A study of Homo sapiens with 4 samples.

Results

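The HNRNP and SRSF genes encode abundant RNA-binding proteins that help choose splice sites. In the deposited expression table of a human cell line with a knockdown of FYB1, they were taken as all rows that GENCODE 29 annotates as protein coding with a symbol that starts with HNRNP, or with SRSF and a number. This gave 35 genes of 28274 in the table, 23 HNRNP and 12 SRSF. The near copies HNRNPCL1 to HNRNPCL4 were not analysed here. Of these, 33 had a mean of at least 1 FPKM over the libraries and were tested, 22 HNRNP and 11 SRSF. FPKM counts reads per kilobase of exon scaled to the library total. Only gene totals were measured, so the values say nothing of which isoform was made or how it was spliced.

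The study sequenced RNA of a human cell line, named J-gammal in the labels, in 2 groups. The 2 controls have titles with the letters NC, a source name that says untreated and a genotype given as none. The 2 others are labelled with a knockdown of FYB1, the gene of an adaptor protein of T cell receptor and integrin signalling, and their titles start with sh. The sources used here do not say if the controls carried a control construct, if both knockdown libraries carry the same construct, or if the libraries within a group are separate cultures. The p-values thus rest on the spread among 4 libraries, and part of that spread may be technical.

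Between 16693113 and 20251864 reads per library were recovered from the values. FYB1 was at 17.6 and 20.1 FPKM in the controls against 6.18 and 4.53 FPKM with knockdown, a log2 fold change of -1.65 ± 0.15 (SE; limma-trend, Benjamini-Hochberg adjusted p = 0.0398). The labels name no cell type. All 12 T cell markers examined had a mean of at least 1 FPKM. Their summed level was 1622 to 1715 FPKM in the controls and 1345 to 1592 FPKM in the knockdown libraries. By log2 fold change 7 of the 12 were lower and 5 higher. CD3D had a mean of 448.8 FPKM in the controls and 261.5 FPKM with knockdown, and TRAC of 386.2 and 432.3 FPKM. None of 8 myeloid markers and 1 of 6 B cell markers, CD79A, reached a mean of 1 FPKM. The summed B cell markers were at 22.0 to 25.6 FPKM in the controls and at 11.7 to 16.3 FPKM in the knockdown libraries. Of the erythroid and megakaryocyte markers and of the epithelial and stromal markers, none reached a mean of 1 FPKM. The part of these marker levels in the differences below was not tested. In bulk RNA, fewer cells of a kind and less RNA per cell cannot be told apart.

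Heterogeneous nuclear ribonucleoproteins (hnRNPs) coat nascent transcripts through RNA recognition or KH domains, and many of them silence exons or splice sites near their binding motifs. SR proteins carry RNA recognition motifs and a tail rich in arginine-serine dipeptides, and they typically bind exonic enhancers and recruit the spliceosome. Kinases phosphorylate the tail and importins carry the proteins into the nucleus. Both families regulate their own messages in many cases, and in T cells members such as hnRNP L and hnRNP L-like control exons of the phosphatase CD45.

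Arg-Ser and Ser-Arg codon pairs separate the families at the sequence level. In the longest annotated coding sequence of each gene, the SRSF genes held between 4.07 (SRSF9) and 23.5 (SRSF2) Arg-Ser or Ser-Arg codon pairs per 100 codons, and the HNRNP genes between 0.241 (HNRNPF) and 2.55 (HNRNPA2B1). Over the whole coding sequence, SRSF1 held 30 pairs in 253 codons and SRSF9 held 9 pairs in 221 codons. The windows below show the 60 coding bases richest in such pairs (positions 610 to 669 of SRSF1 and 541 to 600 of SRSF9, counted from the A of the start codon), with the codons of Arg-Ser and Ser-Arg pairs in capitals. The window of HNRNPA1 (positions 643 to 702) shows its glycine-rich tail, with Arg-Gly-Gly codons in capitals.
SRSF1: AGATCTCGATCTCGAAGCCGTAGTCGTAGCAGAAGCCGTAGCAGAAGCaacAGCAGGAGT
SRSF9: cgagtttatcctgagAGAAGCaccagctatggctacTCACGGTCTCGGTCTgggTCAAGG
HNRNPA1: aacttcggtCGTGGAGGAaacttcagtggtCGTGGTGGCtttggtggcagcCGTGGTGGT

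Several genes have near copies, which bears on how far a read can be assigned. HNRNPA1L2 differed from HNRNPA1 at 15 of 960 aligned coding bases (98.4% identity) and HNRNPA1P48 at 6 of 825 (99.3%). Of the 50-base words in their transcripts, 58.5% and 51.6% also occurred in transcripts of other genes, against 23.0% for HNRNPA1. The values of these copies are therefore uncertain. HNRNPF and HNRNPH1, which encode related proteins that bind runs of G, were 78.5% identical over 1240 aligned coding bases, and no 50-base word of HNRNPF occurred in another gene. The lines below give a 60-base coding window of each pair, with the bases that differ between its sequences in capitals (positions 93 to 152 of HNRNPA1L2 and HNRNPA1, and 3 to 62 of HNRNPF and HNRNPH1).
HNRNPA1L2: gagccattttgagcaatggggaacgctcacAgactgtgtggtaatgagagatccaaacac
HNRNPA1: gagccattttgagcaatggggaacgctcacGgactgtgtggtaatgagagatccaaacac
HNRNPF: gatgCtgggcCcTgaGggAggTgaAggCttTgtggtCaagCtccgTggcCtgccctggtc
HNRNPH1: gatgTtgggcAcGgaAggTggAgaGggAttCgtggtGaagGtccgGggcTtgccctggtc
The HNRNPF window differs from HNRNPH1 at 13 of its bases, and the HNRNPA1L2 window from HNRNPA1 at 1.

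No HNRNP or SRSF gene passed the main test, while 0.205% of the 13172 genes tested did (18 or 0.137% lower and 9 or 0.0683% higher). The lowest adjusted p among the members was 0.126, for HNRNPF (limma-trend with Benjamini-Hochberg adjustment). At an unadjusted p under 0.05, 6 members were lower and 1 was higher, beside 14.9% and 8.51% of all genes tested. With limma-voom on whole reads recovered from the FPKM, which models the depth of each value, 1 member was called, HNRNPF, which fell, and 7.74% of all genes were called (764 or 5.8% lower and 255 or 1.94% higher). At an unadjusted p under 0.05 limma-voom had 11 members lower and 1 higher, beside 18.1% and 10.3% of all genes. The split of all calls moved to 207 lower and 254 higher with summed reads as library size, and to 299 and 214 with quantile normalization.

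Most members had a lower mean in the knockdown libraries, 26 of 33, and 7 had a higher mean, beside 54.3% of all genes with a lower mean. The median log2 fold change was -0.18 for the members and -0.03 for all genes tested, which are not matched to the members in level. With quantile normalization these were 0.08 and 0.01, with 14 of 33 members lower. Among HNRNP genes 18 of 22 were lower with a median of -0.21, and among SRSF genes 8 of 11 were lower with a median of -0.07. With quantile normalization these medians turned to 0.05 and 0.20, and with summed reads as library size they were -0.08 and 0.06. In 19 members both knockdown libraries lay below both controls, in 3 they lay above, and in 11 the groups overlapped; the background shares are 34.6% below and 26% above.

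**Figure D1:**
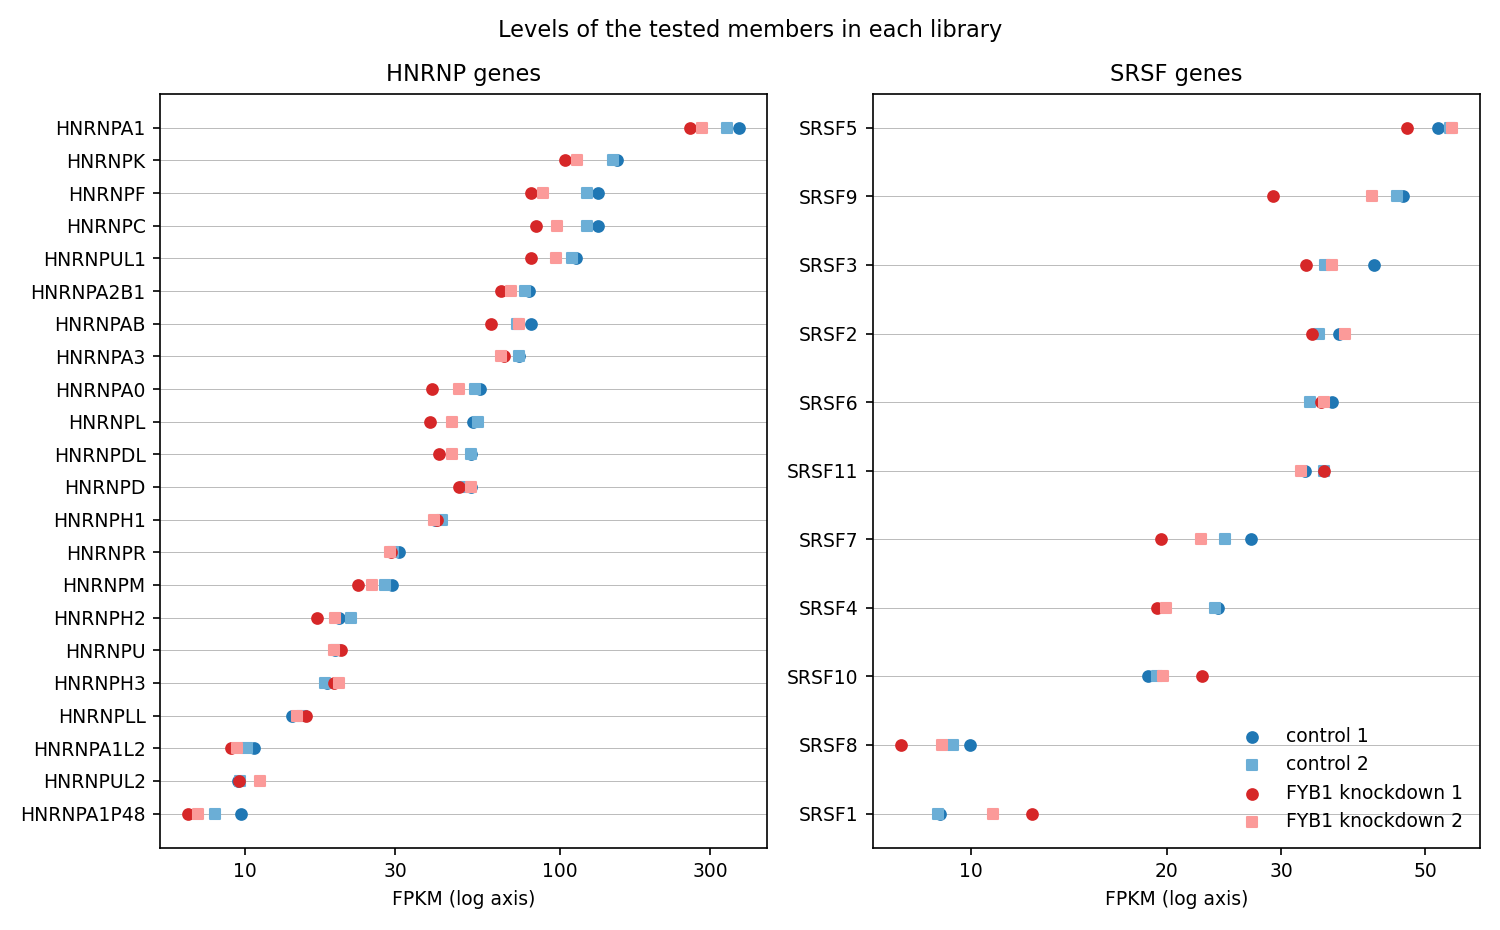
FPKM of each tested HNRNP (left) and SRSF (right) gene on a log axis, with 1 point per library (blue controls, red knockdown). HNRNPA1 stood highest in all 4 libraries, and the knockdown points of HNRNPF, HNRNPC and HNRNPK lay to the left of both controls.

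The deviation was larger in knockdown library 1 than in knockdown library 2. Relative to the control mean, the median of the 33 members was -0.27 in knockdown library 1 and -0.10 in library 2, on the log2 scale, while the median of all genes was -0.05 and -0.01. In each of these libraries 25 of 33 members lay below the control mean. Differences also varied with level: the median of all genes was 0.04 from 1 to 10 FPKM, -0.12 from 10 to 30, -0.27 from 30 to 100 and -0.41 from 100 FPKM. The members in those ranges numbered 4, 10, 14 and 5, with medians of -0.17, -0.01, -0.16 and -0.45. In the highest range the median of the members lay near that of other genes of their level. From 10 to 30 FPKM (-0.01 beside -0.12) and from 30 to 100 FPKM (-0.16 beside -0.27) the members were less lowered than all genes. From 1 to 10 FPKM the 4 members were lower (-0.17 beside 0.04). What part level had in the lower values was not tested.

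**Figure D2:**
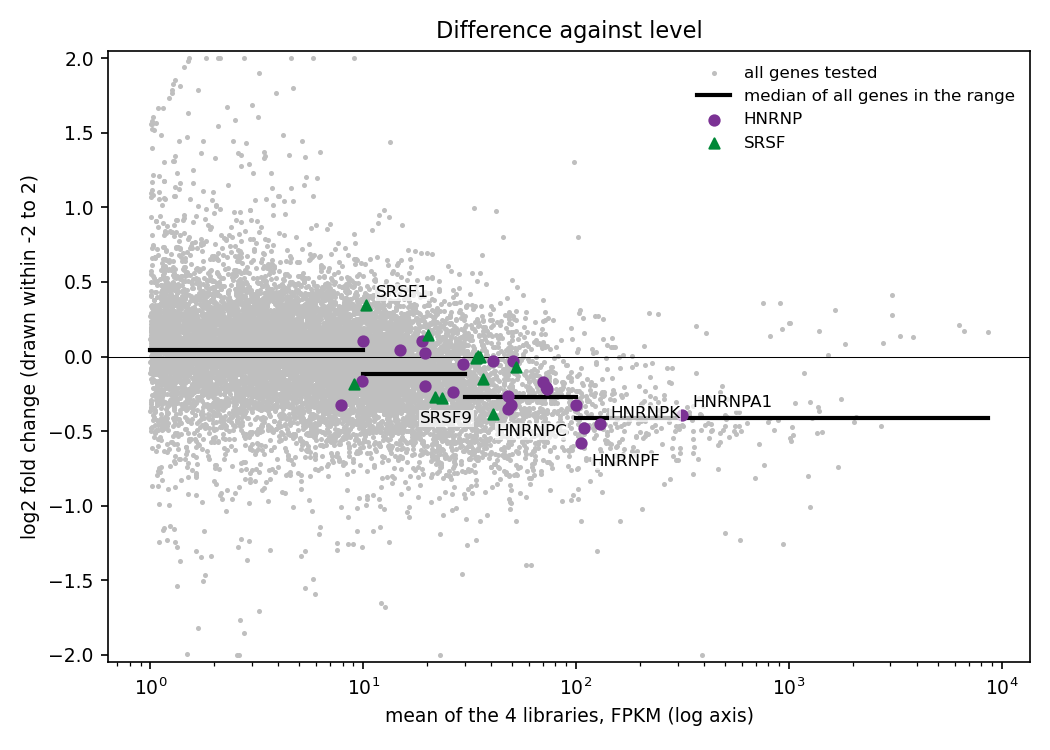
Log2 fold change, knockdown minus control, against the mean of the 4 libraries (FPKM, log axis) for all 13172 genes tested (grey), HNRNP (purple circles) and SRSF genes (green triangles), with black bars at the median of all genes in 4 ranges of level; values beyond the axis are drawn at its edge. The 5 members at 100 FPKM or more, all HNRNP, ran from -0.58 (HNRNPF) to -0.32 (HNRNPUL1) with a median of -0.45, beside -0.41 for all genes there.

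Among the HNRNP genes, HNRNPF had the largest difference by the main test. With the length and GC trend removed HNRNPC (-0.64), HNRNPK (-0.54) and HNRNPA0 (-0.49) exceeded it (-0.47). With quantile normalization HNRNPA1P48 (-0.30), HNRNPH3 (0.248) and HNRNPD (0.238) exceeded it in size (-0.237). The level of HNRNPF was 132 and 122 FPKM in the controls against 80.9 and 88.4 FPKM with knockdown, or 127 ± 7.06 against 84.6 ± 5.32 (SD, n = 2 per group). The groups did not overlap, and the log2 fold change was -0.58 ± 0.13 (SE; limma-trend with Benjamini-Hochberg adjustment, adjusted p = 0.126). With quantile normalization limma-trend gave -0.24, with an adjusted p of 0.176. With limma-voom the change was -0.59 ± 0.13 with an adjusted p of 0.0277, which was 0.0455 with summed reads as library size and 0.0446 with quantile normalization. Without control 1, control 2 or knockdown library 1 the limma-voom adjusted p was 0.393, 0.134 or 0.0697, so the call was lost when any of these was left out, and without knockdown library 2 it was 0.00795. In that last fit limma-voom called 14 members, 13 lower and 1 higher, beside 19.7% of all genes called lower and 9.69% higher.

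The other genes of the F and H family had smaller differences. HNRNPH1 stood at 40.1 and 42.3 FPKM in the controls against 40.8 and 39.9 FPKM with knockdown, and HNRNPH3 at 18.2, 18.0, 19.2 and 19.9 FPKM in the same order. The ratio of HNRNPF to HNRNPH1, which does not depend on the library total, was 3.29 and 2.88 in the controls against 1.98 and 2.21 with knockdown. The ratio of HNRNPF to HNRNPH3 went from 7.25 and 6.77 to 4.20 and 4.44. Neither ratio overlapped between groups. For HNRNPH3 this was fixed in advance, because both knockdown libraries lay below both controls for HNRNPF and above them for HNRNPH3. HNRNPF stood at a higher level than HNRNPH1 and HNRNPH3, and what part level had in these ratios was not tested. HNRNPH2, encoded on chromosome X, had a log2 fold change of -0.19 ± 0.12 (SE).

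HNRNPC, which binds runs of U and sets exon boundaries near Alu elements, was at 132 and 122 FPKM in the controls against 84.1 and 97.8 FPKM with knockdown. The groups did not overlap, and the log2 fold change was -0.48 ± 0.14 (limma-trend with Benjamini-Hochberg adjustment, adjusted p = 0.155; limma-voom 0.066). HNRNPK, a poly-C binding protein with KH domains, was at 152 and 147 FPKM against 104 and 114 FPKM, with a log2 fold change of -0.45 ± 0.13 (limma-trend adjusted p = 0.153; limma-voom 0.0638). HNRNPL, which binds CA repeats, was at 53.2 and 54.9 FPKM against 38.8 and 45.7 FPKM, a log2 fold change of -0.35 ± 0.13 (limma-trend adjusted p = 0.187; limma-voom 0.105). Both knockdown libraries were below both controls for all 3 genes, beside 34.6% of all genes tested. The median of all genes was -0.41 from 100 FPKM, the range of HNRNPC and HNRNPK by their mean over the libraries. It was -0.27 from 30 to 100 FPKM, the range of HNRNPL. What part level had here was not tested. With quantile normalization the values shrank to -0.13 for HNRNPC, -0.12 for HNRNPK and -0.098 for HNRNPL, and that of HNRNPL was -0.22 with summed reads as library size.

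HNRNPLL, which takes part in CD45 exon silencing in activated T cells, stood at 14.2 and 15.2 FPKM in the controls against 15.6 and 14.7 FPKM with knockdown. The ratio of HNRNPL to HNRNPLL was 3.76 and 3.61 in the controls against 2.48 and 3.11 with knockdown, without overlap. HNRNPL stood at a higher level than HNRNPLL. The median of all genes was -0.27 from 30 to 100 FPKM and -0.12 from 10 to 30 FPKM. What part level had in this ratio was not tested.

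The best known member of the A and B family, hnRNP A1, silences exons and shuttles between nucleus and cytoplasm. In this family 7 of 7 genes were lower, beside 54.3% of all genes, with a family median of -0.22. All genes are not matched to the family in level. Their median was -0.41 from 100 FPKM, -0.27 from 30 to 100 and 0.04 from 1 to 10, and the part of level was not tested. The 7 include HNRNPA1L2 and HNRNPA1P48, whose values are uncertain. However, HNRNPA1, HNRNPA2B1, HNRNPA3 and HNRNPAB turned to between 0.07 and 0.13 with quantile normalization. HNRNPA1 was the highest of the HNRNP genes, at 371 and 340 FPKM in the controls against 259 and 283 FPKM with knockdown, a log2 fold change of -0.39 ± 0.16 (limma-trend with Benjamini-Hochberg adjustment, adjusted p = 0.221; limma-voom 0.130). HNRNPA0 was at 55.8 and 53.8 FPKM against 39.3 and 48.0 FPKM, with a log2 fold change of -0.33 ± 0.14 (limma-trend adjusted p = 0.224; limma-voom 0.147). The difference of HNRNPA0 was -0.075 with quantile normalization, -0.19 with summed reads as library size and -0.19 without knockdown library 1. HNRNPA2B1, HNRNPA3 and HNRNPAB had log2 fold changes of -0.22, -0.17 and -0.21, and the near copies HNRNPA1L2 and HNRNPA1P48 of -0.16 and -0.33. In 6 of the 7, all but HNRNPAB, both knockdown libraries lay below both controls, beside 34.6% of all genes.

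The D family gene HNRNPD, whose protein binds AU-rich elements of unstable messages, overlapped between groups with a log2 fold change of -0.03 ± 0.12, and its relative HNRNPDL had -0.26 ± 0.12. HNRNPM had -0.24 and HNRNPR -0.05. In the U family, HNRNPU, a nuclear scaffold protein, had a log2 fold change of 0.02 and HNRNPUL2 of 0.10, both with overlapping groups. HNRNPUL1 was at 113 and 109 FPKM in the controls against 81.0 and 97.2 FPKM with knockdown, a log2 fold change of -0.32 that became 0.032 with quantile normalization. The ratio of HNRNPUL1 to HNRNPUL2 was 11.9 and 11.3 in the controls against 8.45 and 8.70 with knockdown. HNRNPUL1 stood at a higher level than HNRNPUL2. The median of all genes was -0.41 from 100 FPKM and 0.04 from 1 to 10 FPKM. What part level had in this ratio was not tested. HNRNPUL2 shares 43.2% of its 50-base words with the readthrough gene HNRNPUL2-BSCL2, which was not tested: 1 read was recovered for it in control 1 and 2 in knockdown library 1, and 0 in the other two.

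**Figure D3:**
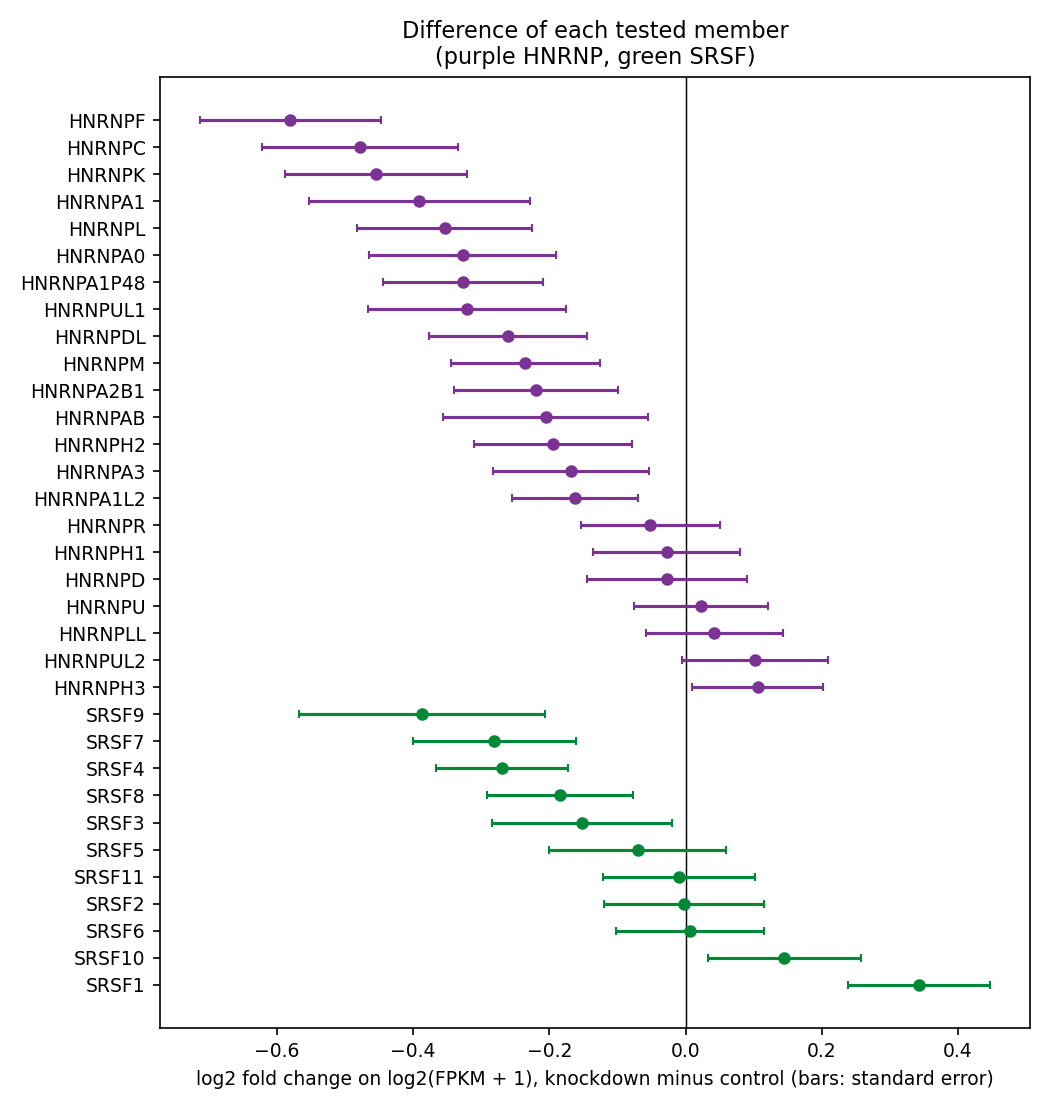
Log2 fold change on log2(FPKM + 1), knockdown minus control, of the 33 tested members, with bars for 1 standard error, sorted within HNRNP (purple) and SRSF (green) genes. HNRNPF at -0.58 and SRSF1 at 0.34 lie at the ends, and the bars of several genes span 0. Quantile normalization turned the direction of 12 of these genes.

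SRSF1, the founding member of the SR proteins, was the member with the largest higher value. It was at 8.96 and 8.88 FPKM in the controls against 12.4 and 10.8 FPKM with knockdown, or 8.92 ± 0.0528 against 11.6 ± 1.11 FPKM (SD, n = 2 per group). The groups did not overlap and the log2 fold change was 0.34 ± 0.10 (limma-trend with Benjamini-Hochberg adjustment, adjusted p = 0.156; limma-voom 0.102). Of its 50-base words, 50.8% occur in the coding gene AC015813.2, annotated over it on the same strand and not analysed here, so the value may hold reads of both or miss some.

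SRSF9 lay lowest among the SRSF changes. Its level was 46.3 and 45.3 FPKM in the controls against 29.2 and 41.4 FPKM with knockdown, a log2 fold change of -0.39 ± 0.18 (limma-trend with Benjamini-Hochberg adjustment, adjusted p = 0.254; limma-voom 0.126). The 2 knockdown libraries differed from each other more than the controls did, and both lay below the controls. The log2 fold change was -0.14 without knockdown library 1, -0.63 without knockdown library 2 and -0.14 with quantile normalization. SRSF9 shares 43.9% of its words with GATC on the opposite strand, whose FPKM was 7.24, 7.06, 6.12 and 6.53, and the sources used here do not say if the counting used strand. The ratio of SRSF1 to SRSF9 was 0.194 and 0.196 in the controls against 0.425 and 0.261 with knockdown. The groups could not overlap in this ratio, because both knockdown libraries lay above both controls for SRSF1 and below them for SRSF9. The ratio thus adds nothing to the values of the 2 genes.

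The other SRSF genes lay between these. SRSF5, the highest of the SRSF genes, was at 52.3 and 54.5 FPKM in the controls against 46.9 and 55.1 FPKM with knockdown, a log2 fold change of -0.07 ± 0.13 (limma-trend with Benjamini-Hochberg adjustment, adjusted p = 0.751; limma-voom 0.741). SRSF3 was at 41.7 and 35.1 FPKM against 32.8 and 36.0 FPKM, with a log2 fold change of -0.15 ± 0.13 (limma-trend adjusted p = 0.493; limma-voom 0.463). The groups overlapped for both. SRSF2 (0.00), SRSF6 (0.01) and SRSF11 (-0.01) had log2 fold changes near 0, and 29.2% of the words of SRSF2 occur in MFSD11 on the opposite strand. SRSF4, SRSF7 and SRSF8 were at -0.27, -0.28 and -0.18, and their groups did not overlap. Of the 11 SRSF genes tested, 4 had both knockdown libraries below both controls and 2 had both above. The shares of all genes were 34.6% and 26%. SRSF10, which can act as a repressor when dephosphorylated, was at 0.15, with both knockdown libraries above both controls. SRSF12 was at or near 0 in all libraries, with 0, 2, 0 and 1 reads, and was not tested. Where its count was 0, up to 3 reads are allowed, or 0.0396 FPKM in control 1 and 0.0358 FPKM in knockdown library 1.

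Summed over their genes, HNRNP messages took a smaller share of the recovered reads in the knockdown libraries. The share was 0.872% (95% Wilson interval 0.868 to 0.877) in control 1, 0.864% (0.860 to 0.868) in control 2, 0.784% (0.780 to 0.788) in knockdown library 1 and 0.783% (0.779 to 0.787) in knockdown library 2. These intervals cover counting error only. The SRSF genes took 0.179%, 0.180%, 0.189% and 0.182% in the same order. The ratio of the summed FPKM of HNRNP to SRSF genes, free of the library total, was 4.64 and 4.57 in the controls against 3.94 and 3.999 with knockdown, and without HNRNPA1, the largest term, it was 3.53 and 3.52 against 3.06 and 3.11. Both forms of the ratio separated the groups. With 2 libraries a group an exact permutation test could not reach a p of 0.05, and none was run. Neither form is free of the shift with level. The median of all genes was -0.41 from 100 FPKM, beside -0.03 for all genes tested. The 5 members at that level were all HNRNP. Leaving out HNRNPA1 kept HNRNPC, HNRNPF, HNRNPK and HNRNPUL1, which also stood there. What part level had in the ratio was not tested.

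**Figure D4:**
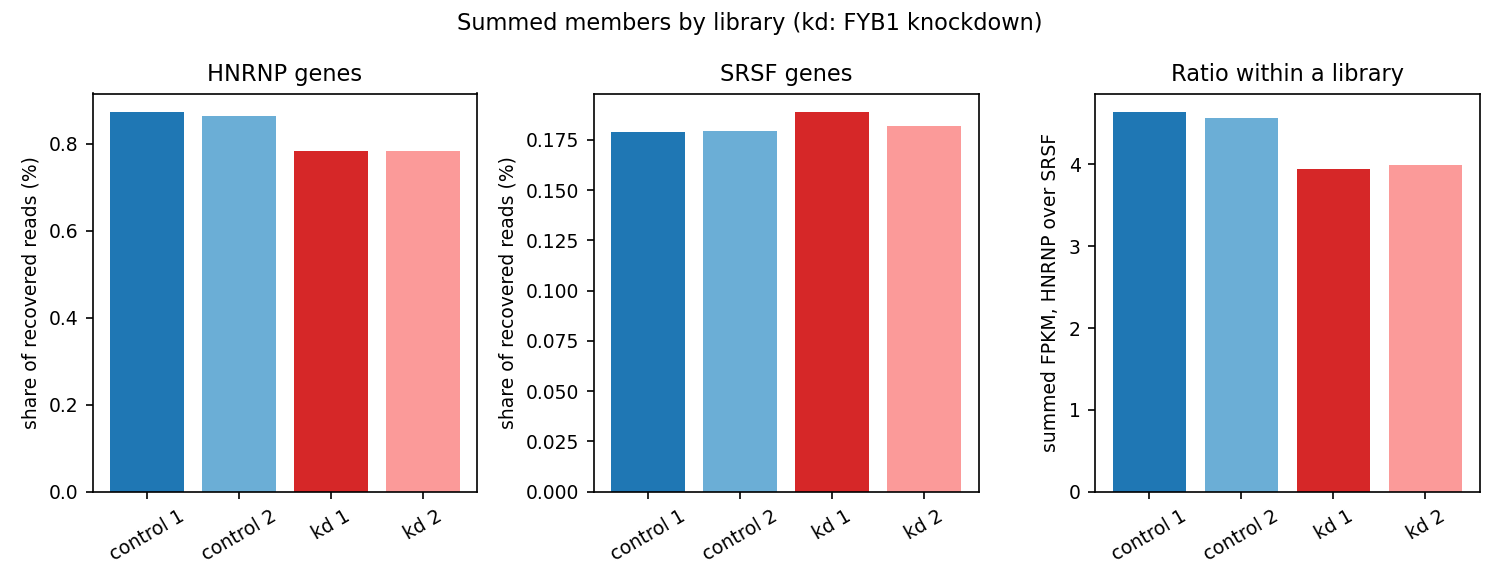
Share of recovered reads (%) taken by HNRNP genes (left) and SRSF genes (middle), and the ratio of summed FPKM of HNRNP to SRSF genes (right), for each of the 4 libraries, with bars from 0. The HNRNP share and the ratio are lower in both knockdown libraries, while the SRSF share is not.

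Other genes of the splicing machinery were read from 8 lists, none of which had a member called by limma-trend. Of the 131 genes tested in these lists, limma-voom called 11 lower (8.4%) and 3 higher (2.29%), beside 5.8% and 1.94% of all genes. This split became 0 lower and 3 higher with summed reads as library size, and 0 and 4 with quantile normalization. It was 0 and 0 without control 1 or knockdown library 1, 2 and 0 without control 2 (SNRPD2 and SNRPG), and 35 and 9 without knockdown library 2. All 14 calls were thus lost without control 1 or knockdown library 1, and all but those of SNRPD2 and SNRPG without control 2. The Sm core proteins, which form the ring of the spliceosomal snRNPs, had 8 of 8 genes lower, beside 54.3% of all genes. Their median was -0.55, which was -0.29 with quantile normalization and -0.41 with summed reads as library size. The median of all genes was -0.27 from 30 to 100 FPKM and -0.41 from 100 FPKM, and the part of level here was not tested. Of the Sm genes, SNRPB, SNRPD2, SNRPF and SNRPG were called lower by limma-voom (Benjamini-Hochberg adjusted p = 0.0447, 0.0316, 0.0348 and 0.0389). SNRPD2 was at 202 and 178 FPKM in the controls against 95.4 and 139 FPKM with knockdown, a log2 fold change of -0.72 ± 0.21. The Sm calls numbered 0 with summed reads as library size, under quantile normalization, without control 1 and without knockdown library 1, 2 without control 2 and 7 without knockdown library 2, where 19.7% of all genes were called lower. Leaving out knockdown library 1 gave a Sm median of -0.33, and leaving out library 2 gave -0.80.

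In the U2 snRNP and 3' splice site list 13 of 19 genes were lower with a median of -0.11, and limma-voom called SF3B1, the branch site binding scaffold, and PHF5A lower, with log2 fold changes of -0.45 and -0.56. In the U4/U6.U5 tri-snRNP list 10 of 15 were lower (median -0.13), and PRPF31, USP39 and PPIH were called lower by limma-voom at -0.59, -0.47 and -0.54. Among 34 other regulators tested of 40, 21 were lower (median -0.07). There CELF2, at 20.1, 20.9, 33.9 and 28.2 FPKM, and TIA1, at 14.7, 14.6, 22.1 and 19.4 FPKM, were called higher by limma-voom, with log2 fold changes of 0.57 and 0.48, and RBM15 was called lower at -0.51. These 3 genes encode regulators of exon choice or RNA methylation.

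The partners of the SR proteins split more evenly. Of the SR protein kinases and nuclear import factors, 5 of 12 tested were lower and 7 higher (median 0.04), and limma-voom called the kinase CLK3 lower at -0.42 and DYRK1B higher at 0.49. Of 16 SR-related proteins and TRA2 factors, 6 were lower and 10 higher (median 0.02), and limma-voom called none. SRRM2 and PNN, the highest of that list, had log2 fold changes of 0.23 and -0.15. Of 9 U1 snRNP proteins and LUC7 factors 4 were lower (median 0.01), with SNRPC at -0.24 and SNRNP70 at -0.40. Of 18 genes of the PRPF19 complex and catalytic steps 11 were lower (median -0.06), with PRPF19 at -0.17 and XAB2 at -0.31. Limma-voom called none in the last 2 lists.

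**Figure D5:**
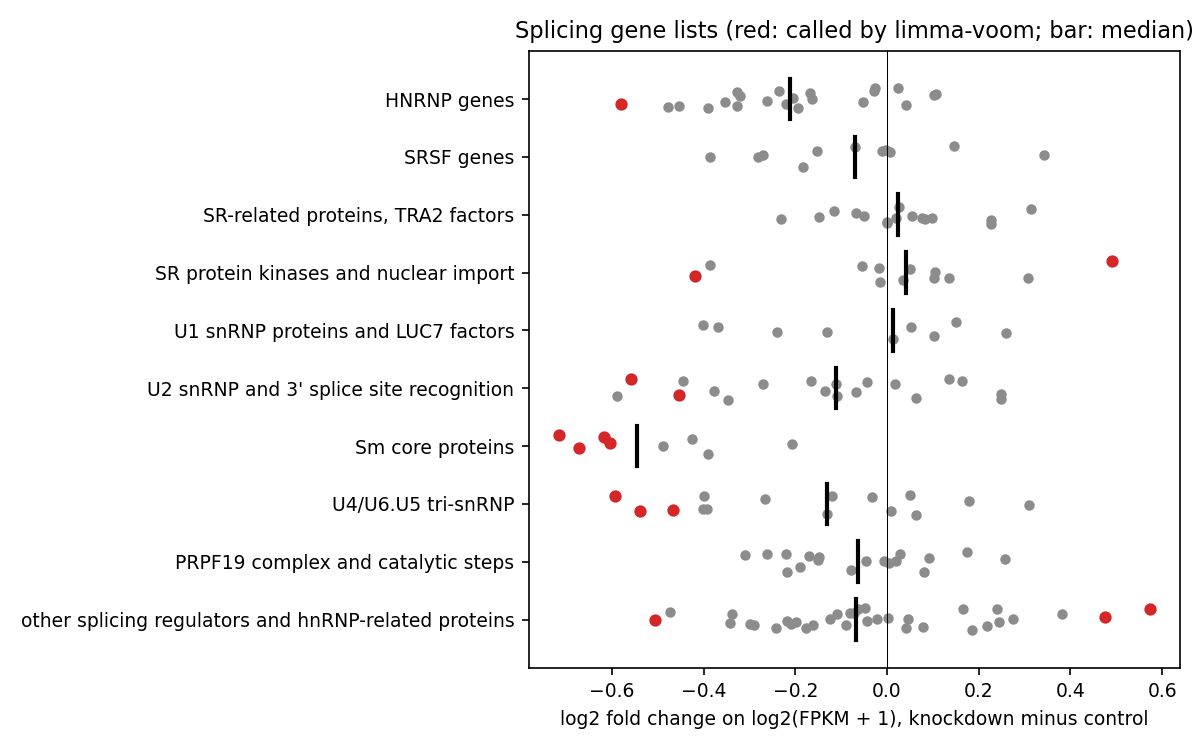
Log2 fold change on log2(FPKM + 1), knockdown minus control, of the genes of each splicing list (points) with the list median (bar); red points are genes called by limma-voom. The Sm core list has 8 of 8 genes below 0, beside 54.3% of all genes, and the SR-related and kinase lists have medians above 0 by limma-trend.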

How the data were processed

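The values were deposited by the authors as FPKM per gene and library in 1 table. HISAT2 2.0.5 and build hg38 are named, per the submitters' processing notes; the counting program, annotation and strand setting are not stated in the labels. Each FPKM times the merged exon length in GENCODE 29 was a whole multiple of 1 read within 0.001 reads for 100% of values. This gave the recovered reads and the library totals. The totals implied by the FPKM were 16648943 and 16789004 in controls 1 and 2, and 18436617 and 20480491 in knockdown libraries 1 and 2. They differ from the summed recovered reads, which were 17597678, 17216663, 16693113 and 20251864 in the same order. Differences were tested with limma-trend (limma 3.58.1, R 4.3.3) on log2(FPKM + 1), over the 13172 genes that averaged 1 FPKM or more, group as the single term, Benjamini-Hochberg adjusted at a threshold of 0.05, and with limma-voom on the recovered reads. Both were run on simulated reads with changes larger than those of the tested members and without a shift by level. That run does not show how either performs on changes of the size seen here. Fold changes on this scale understate the change of low genes. Every member is named; values in each library are given for members called by either test, the 8 with the largest change and the 3 highest of each family; from each wider list up to 4 called genes, otherwise the 2 highest. Members and lists were chosen with earlier results of these data known. Sequences come from GENCODE 29.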

Additional observations from a re-analysis of the deposited data

How the results depend on the processing

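Members called numbered 0 by the main test and under every planned limma-trend alternative, and 1 with limma-voom. Limma-trend with the crossed replicate block called 2 (HNRNPF and HNRNPC, adjusted p 0.0287 and 0.0442), beside 1303 genes lower and 607 higher of 13172. That block was added after seeing the data, because same-numbered deviations correlated negatively, so its smaller p-values are no independent support. The limma-voom settings of HNRNPF and the wider lists were also added after seeing the data. The labels do not say that numbers pair libraries; same-numbered deviations correlated at -0.207 over 13172 genes. With the replicate block the member median was -0.18 and 0 were called. Genes called in the whole table, 27 by the main test, numbered 781 with the replicate block, 1910 with it crossed, 100 with it and the length and GC trend removed, 131 with that trend removed alone, 45 with quantile normalization, 77 with summed reads as library size, 181 with a mean of at least 5 FPKM, 1019 with limma-voom, 0 without a filter on low values (3938 at an unadjusted p under 0.05), and 0 to 406 when 1 library was left out (0 without knockdown library 1 or 2, 228 without control 1, 406 without control 2). Calls in the wider lists were 1 with the replicate block, 1 with the length and GC trend removed, 14 with limma-voom and 19 with the crossed block. The member median was 0.080 with quantile normalization, -0.060 with summed reads as library size, and -0.27 to -0.10 when 1 library was left out. That size moved the median of all genes from -0.03 to 0.08; relative to the median of all genes, that of the members was -0.15 by the main test, -0.14 there, -0.077 with a mean of at least 5 FPKM, -0.086 without knockdown library 1, -0.22 without knockdown library 2 and 0.073 with quantile normalization. Summed reads as library size rescale all values of a library by the same factor. The cause of the other shifts was not tested.

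Of 33 members, 17 had the same direction under all 15 alternatives. Not all of these could turn a direction. The replicate block, crossed or not, and the other filters on low values leave the log2 fold change of each member unchanged. The other members turned as follows. With quantile normalization HNRNPA1 was at 0.065, HNRNPUL1 0.032, HNRNPA2B1 0.080, HNRNPA3 0.13, HNRNPAB 0.091, SRSF3 0.080, SRSF5 0.20, HNRNPR 0.17, HNRNPH1 0.22, HNRNPD 0.24, SRSF11 0.22 and SRSF2 0.22. With summed reads as library size SRSF5 was at 0.065, HNRNPR 0.082, HNRNPH1 0.11, HNRNPD 0.11, SRSF11 0.12 and SRSF2 0.13. With the length and GC trend removed, with or without the replicate block, SRSF10 was at -0.067, HNRNPLL -0.067, HNRNPU -0.26, SRSF6 -0.060 and SRSF2 0.067. Leaving out 1 library gave a range of -0.0057 to 0.090 for HNRNPLL, of -0.092 to 0.038 for HNRNPD, of -0.084 to 0.079 for SRSF2, of -0.066 to 0.010 for HNRNPH1, of -0.069 to 0.048 for SRSF11, of -0.049 to 0.062 for SRSF6, of -0.18 to 0.043 for SRSF5, of -0.016 to 0.062 for HNRNPU.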
